A study of Rattus norvegicus with 14 samples.

Results

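The low-count regions were 120923 of the 310070 Methyl-Seq regions counted in rat dorsal hippocampus (39.0%). They were chosen by their position on chromosomes 1 to 20, by a length (end minus start) above 300 bp and by a measured value, a tag sum over all 14 animals below the 50th centile of the table, that is of at most 128 tags. These are the regions that the study's filter on low tag sums left out of its test. Because the tag sum chose them, their low level, their zeros and any contrast of level with the regions above the limit follow from the choice and are given as a description. The tag sum takes no account of the group, so the differences between groups are tested, but no region of this set can hold many tags in any group. For comparison, 144529 regions with the same chromosomes and lengths and a higher tag sum are called kept regions, and 28712 further autosomal regions below the limit were at most 300 bp long.

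All rats were male Wistar animals. CTRL rats (n = 5) were injected with methyl scopolamine and saline and ate a standard diet. PILO rats (n = 4) ate the same diet and were given pilocarpine (340 mg/kg) after methyl scopolamine, which sets off status epilepticus and later leads to chronic seizures, with a second and lower dose where no status epilepticus had followed and diazepam at its end. PILO + KD rats (n = 5) were given the same injections and a ketogenic diet. Observation ended on day 84, no control animals on the ketogenic diet were among the 14, and each library came from the tissue of a single rat, a mix of neurons and glia in which a change within a cell type and a change in the mix of cells cannot be told apart. Rats of a group carried numbers, 1 to 5 in CTRL, 2 to 5 in PILO, and 1 to 4 and 211 in PILO + KD.

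In methyl-CpG capture, DNA fragments are bound by a protein domain that recognizes methylated CpG dinucleotides, and the bound fragments are sequenced. Binding rises with the number of methylated CpGs on a fragment, so that CpG-dense methylated DNA draws many tags, whereas CpG-poor or weakly methylated DNA draws few. Most of the mammalian genome outside CpG islands is CpG-poor, and regions with few tags are therefore numerous in such experiments and hard to compare between animals. Genes, exons and promoters at these positions were not analysed here, because the coordinates are those of the RN4 build and no annotation of that build was used.

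The low-count regions covered 55843681 bp. Their length had a median of 440 bp (quartiles 374 and 527 bp, range 301 to 1653 bp), compared with 782 bp in kept regions. Their tag sum over 14 animals had a median of 63 (quartiles 41 and 89), against 394 in kept regions. Per length, the median was 138 tags per 1000 bp in low-count regions and 515 in kept regions, so both fewer bases and fewer tags per base set them apart. Position relative to other regions differed little, with a median distance to the nearest region of 1590 bp for low-count and 1503 bp for kept regions. On each autosome they made up between 39.9% (chromosome 20) and 49.6% (chromosome 8) of the regions above 300 bp. At the limit itself, 580 regions had a sum of 128 and 584 had the next sum above it, with median lengths of 588.5 and 589 bp. At the length limit, 389 low-count regions of 301 bp had a median sum of 39, and 399 excluded regions of 300 bp had a median sum of 43.

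Although they were 39.0% of the regions, the low-count regions held 6.13% of all tags (7950493 tags), and kept regions held 81.3%. Total tags per animal ranged from 6972700 to 12391666, and tags in low-count regions ranged from 374451 in CTRL 3 to 886364 in PILO 3. A single tag was worth between 0.0761 and 0.143 tags per 1000000 (CPM) after TMM scaling. The median low-count region held 6, 4, 3, 3 and 4 tags in CTRL 1 to 5. It held 3, 6, 3 and 4 tags in PILO 2 to 5, and 3, 5, 4, 4 and 4 tags in PILO + KD 1, 2, 3, 4 and 211. At these levels counting error alone is wide, and the highest count of any animal in any low-count region was 59.

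The share of an animal's tags that fell in low-count regions varied most among controls. It was 7.90%, 5.90%, 4.42%, 5.52% and 5.90% in CTRL 1 to 5. It was 5.71%, 7.15%, 6.201% and 6.13% in PILO 2 to 5, and 5.30%, 6.38%, 6.73%, 5.89% and 5.72% in PILO + KD 1, 2, 3, 4 and 211. The lowest and the highest value of all 14 animals were both controls, and the ranges of PILO and PILO + KD lay within that of CTRL. The means were 5.93% ± 1.26 (SD, n = 5) in CTRL, 6.30% ± 0.609 (SD, n = 4) in PILO and 6.005% ± 0.558 (SD, n = 5) in PILO + KD.

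None of the 3 differences in this share was larger than the spread between animals. PILO differed from CTRL by 0.368 percentage points (exact permutation test, two-sided, p = 0.611, adjusted p over the 3 contrasts 0.917). PILO + KD differed from CTRL by 0.0742 points (exact permutation p = 0.921, adjusted 0.921) and from PILO by -0.294 points (exact permutation p = 0.460, adjusted 0.917). The smallest p that these group sizes allow is 0.00794. The sample labels carry 4 different FC codes, which are read here as flow cells, although the labels do not spell this out. The largest, flow cell FC101, had 3 CTRL, 3 PILO and 2 PILO + KD libraries. Within it the differences were 1.07 points (exact permutation p = 0.2), 1.27 points (p = 0.2, exact permutation) and 0.198 points (p = 0.8, exact permutation), where no contrast can reach 0.05. PILO + KD minus PILO thus changed sign within flow cell FC101. CTRL 1, with the highest share, was on another flow cell, which it shared with PILO + KD 1 alone. What is particular to these animals and what to their flow cell cannot be told apart. PILO minus CTRL was 0.862 points without CTRL 1 and -0.0104 points without CTRL 3.

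**Figure D1:**
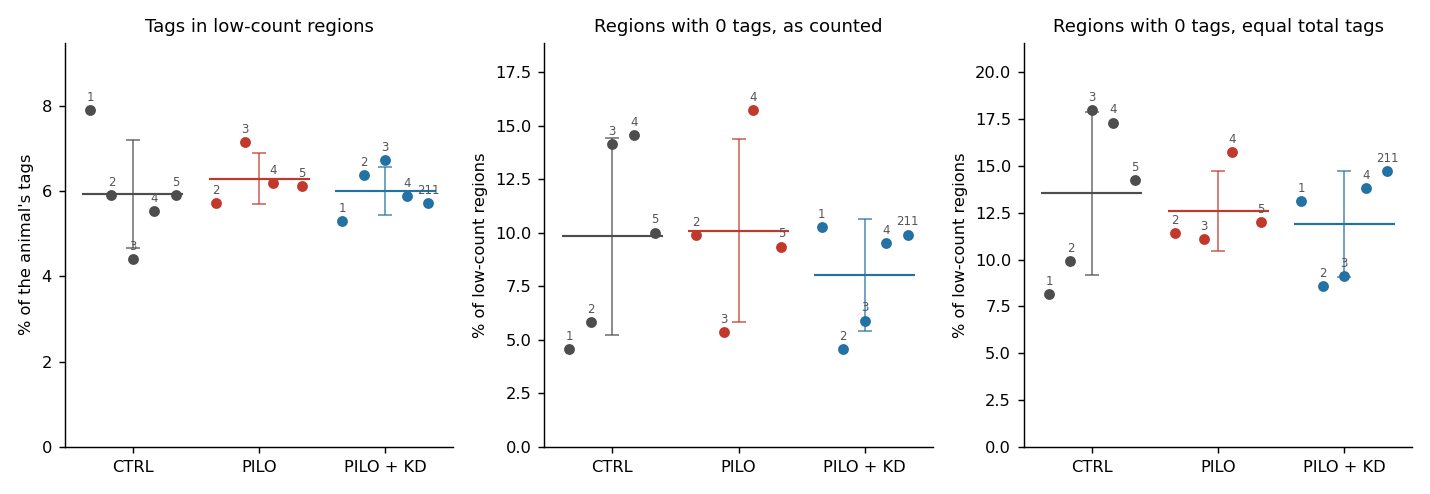
Tags and zeros in low-count regions by animal, with the percent of an animal's tags in low-count regions (left), the percent of these regions with 0 tags as counted (middle) and the same after thinning to equal total tags (right). Points are animals labelled with their number, lines are group means and bars are SD, and in all 3 panels CTRL has the largest SD and the groups overlap.

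Zeros were common. Of the 1692922 values (regions times animals), 156771 were 0 (9.26%), compared with 0.0653% in kept regions. A tag was counted in every animal in 58130 low-count regions (48.1%), 26495 regions (21.9%) were at 0 in a single animal, and 3284 regions (2.72%) were at 0 in 7 or more animals. In 2 regions no animal had a tag, and these entered no test, which left 120921 regions. Zeros fell steeply with the tag sum, from 49.6% of values in regions with 1 to 19 tags to 8.63% with 40 to 59 tags and 0.744% with 100 to 128 tags. They also fell with length, from 14.1% of values in regions of 301 to 399 bp to 2.27% in those of 600 bp or more.

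**Figure D2:**
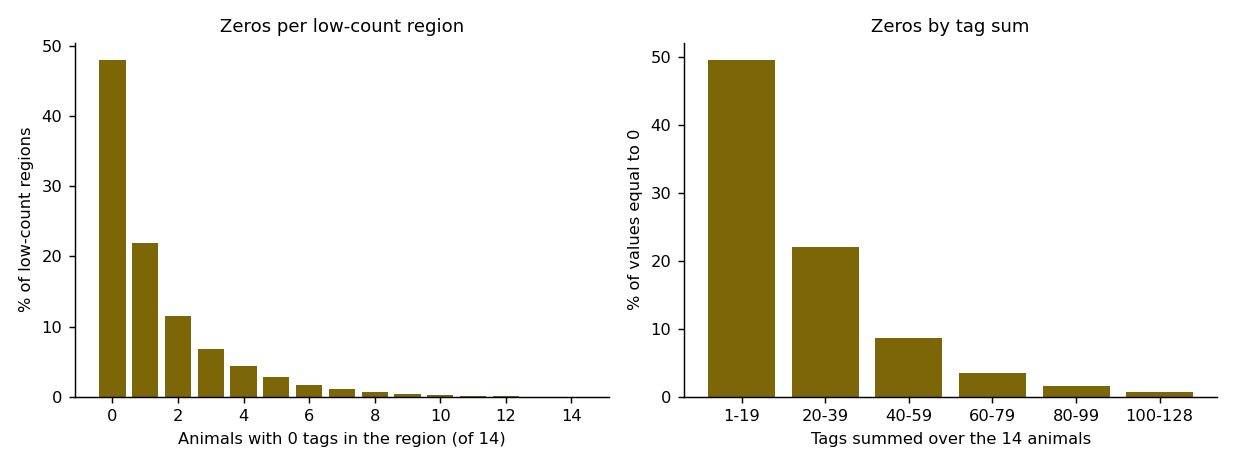
Zeros in low-count regions. The left panel gives the percent of regions by the number of animals, of 14, with 0 tags, and the right panel gives the percent of values equal to 0 by the region's tag sum over 14 animals. Zeros fall from 49.6% of values in regions with 1 to 19 tags to 0.744% in those with 100 to 128 tags.

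The share of low-count regions with 0 tags differed between animals by more than 3 to 1. It was 4.56%, 5.85%, 14.1%, 14.6% and 10.0% in CTRL 1 to 5, 9.90%, 5.36%, 15.7% and 9.36% in PILO 2 to 5, and 10.3%, 4.56%, 5.90%, 9.51% and 9.92% in PILO + KD 1, 2, 3, 4 and 211. Depth did not order these values alone. PILO + KD 1 and PILO 4 held a like number of tags in low-count regions (439504 and 432392), yet 10.3% and 15.7% of the regions were at 0. Had the tags of each region been split among animals in proportion to their tags in low-count regions, the expected shares would have been between 1.47% and 9.76%. The counted share was above this value in each of the 14 animals, as in PILO + KD 2 (4.56% counted, 3.35% expected) and CTRL 4 (14.6% counted, 6.54% expected). Regions were in the table because pairs of animals differed there. The cause of the excess over a proportional split was not tested.

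After thinning each library to the smallest total, 8.17%, 9.93%, 18.0%, 17.3% and 14.3% of low-count regions were at 0 in CTRL 1 to 5. The shares were 11.4%, 11.1%, 15.7% and 12.0% in PILO 2 to 5 and 13.2%, 8.57%, 9.15%, 13.8% and 14.7% in PILO + KD 1, 2, 3, 4 and 211. CTRL again spanned all other animals. The group means were 13.5% ± 4.38 (SD, n = 5), 12.6% ± 2.13 (SD, n = 4) and 11.9% ± 2.83 (SD, n = 5). PILO differed from CTRL by -0.959 points (exact permutation test, two-sided, p = 0.698, adjusted 0.698), PILO + KD from CTRL by -1.65 points (exact permutation p = 0.508, adjusted 0.698), and PILO + KD from PILO by -0.692 points (exact permutation p = 0.667, adjusted 0.698). Within flow cell FC101 the 3 differences were -2.31, -6.22 and -3.91 points (exact permutation p = 0.4, 0.2 and 0.2). Total tags were made equal, not tags in low-count regions. PILO minus CTRL changed its sign without thinning (0.263 points) and after thinning to equal tags within low-count regions (0.427 points).

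Regions that were at 0 throughout a group were few. There were 283 in CTRL (0.234% of low-count regions), 312 in PILO (0.258%) and 135 in PILO + KD (0.112%), and PILO had fewer animals that had to be at 0. Their median tag sums were 11, 13 and 11. Of these, 1, 8 and 3 regions held at least 1 tag in every animal of the other groups.

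Over low-count regions the correlation of log2 CPM between pairs of animals had a mean of 0.348 (91 pairs, range 0.144 to 0.497), whereas it was 0.903 (0.870 to 0.936) over kept regions. These are correlations across regions, which are not independent. The limit on the tag sum narrows the range of levels and few tags add counting error, which both lower the correlation. A gap to kept regions is therefore built into the choice of the set, and how much of it they account for was not tested. Pairs within CTRL had a mean of 0.396, within PILO 0.300 and within PILO + KD 0.343, and pairs across groups had means of 0.342, 0.362 and 0.330. PILO 2 and PILO + KD 1 stood apart, with mean correlations of 0.213 and 0.260 with the other 13 animals, whereas the others lay between 0.332 and 0.408. PILO + KD 1 and CTRL 1 were the only libraries of their flow cell. The chi-square per degree of freedom between replicates was 1.39 to 2.18 over low-count regions, which were called for differing between animals, and no library was treated as a copy of another.

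The animal with the highest CPM held a median of 16.4% of a low-count region's summed CPM (quartiles 13.9% and 20.5%), compared with 10.6% in kept regions. It held more than 50% in 1462 low-count regions (1.21%). CTRL 1 was the highest animal in 13.04% of low-count regions, followed by PILO 4 (9.33%), PILO 2 (9.30%) and PILO 3 (9.05%), and CTRL 3 was the highest in 2.83%.

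Chronic epilepsy was compared with control in single regions. Of 120921 low-count regions, 1287 (1.06%) differed between PILO and CTRL with an unadjusted p below 0.01 in edgeR's quasi-likelihood test, the study's cut-off. Of all 310068 regions tested, 1.17% did so, so the share was close to that of all regions. More regions were higher in PILO (915) than lower (372). The higher ones were 0.757% of low-count regions, and 0.737% of all regions were called higher. After Benjamini-Hochberg adjustment over all regions, 4 low-count regions passed 0.05 in edgeR, 2 in each direction, next to 17 kept regions, and 0 low-count regions passed in DESeq2 or limma-voom. DESeq2's default filter on mean counts can leave regions without an adjusted p, and such regions were counted as not passing. This holds for every DESeq2 count after adjustment given here. When single animals were left out, 1 to 8 passed in edgeR, with 1 without CTRL 5 and 1 without PILO 3.

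The direction of these calls moved with the level of the whole set. The median log2 fold change of low-count regions between PILO and CTRL was 0.10, and that of kept regions was -0.01. When libraries were scaled by TMM over the low-count regions alone, the median was 0.01 and the split was 727 higher and 577 lower (55.8% higher, against 71.1%). The median was 0.21 without CTRL 1, where 1090 of 1345 regions with p below 0.01 were higher. Within flow cell FC101 it was 0.24, and 1108 of 1375 regions were higher. The median was 0.05 without CTRL 3, where 836 of 1315 regions were higher, and 0.04 without PILO 3, where 865 of 1408 were higher. All 20 autosomes had more regions called higher than lower, and the share called ranged from 0.739% on chromosome 13 to 1.404% on chromosome 20. The 915 regions called higher had their highest value in PILO 2 in 29.5%, in PILO 3 in 28.7%, in PILO 4 in 24.5% and in PILO 5 in 17.3% of cases. The 372 called lower had their highest control in CTRL 1 in 36.0% of cases.

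Called differences were large where tags were few. The standard error of the log2 fold change between PILO and CTRL had a median of 0.63 in low-count and 0.26 in kept regions. Among regions called, the absolute log2 fold change had a median of 2.03 (quartiles 1.63 and 2.89), against 0.96 in kept regions. With 1 to 19 tags 2.73% of regions were called, the median absolute log2 fold change of those was 4.42 and 113 of 131 were higher in PILO. The share was 0.748% with 40 to 59 tags and 1.37% with 100 to 128 tags. Just inside the limit, at sums of 109 to 128, 189 of 13511 regions (1.399%) were called, and over the next 20 sums above it 179 of 11178 (1.60%). One of the groups was at 0 in all its animals in 168 of the 1287 regions, CTRL in 111 and PILO in 57. Over all regions this held for 241 of the 3634 called (CTRL in 150, PILO in 91), and for 2 of 2080 among kept regions. Called or not, 283 low-count regions were at 0 throughout CTRL and 312 throughout PILO. The values of PILO and CTRL did not overlap in 2023 low-count regions (1.67%), 1377 of them higher in PILO, and did not overlap in 1.77% of all regions.

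The named regions were selected on the contrast for which their values are given. The region with the smallest p in PILO versus CTRL was chr4:4870721-4871667 (946 bp). It held 0 tags in all 5 CTRL animals. PILO 2 to 5 held 10, 59, 7 and 0 tags, and PILO + KD 1, 2, 3, 4 and 211 held 0, 0, 2, 0 and 0. The tags thus came from 3 PILO animals and mostly from PILO 3, while PILO 5 was at 0 like the controls. The pooled level in PILO was 33.2 times a floor of 3 counts over the CTRL group (adjusted p = 0.00172, edgeR quasi-likelihood test with Benjamini-Hochberg adjustment). The lower limit of the counting interval for PILO over CTRL was 26.4. DESeq2's test gave an unadjusted p of 0.0163, and an exact permutation test over animals gave 0.0476. PILO + KD was lower than PILO, with 2 tags against 76 (log2 fold change -5.04 ± 0.86 SE, adjusted p = 0.0339, edgeR). Without PILO 3 that fold change was -3.83. It was also the region with the smallest p among those at 0 throughout CTRL.

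None of the 4 regions within 10 kb had an unadjusted p below 0.05 for PILO versus CTRL in edgeR. The low-count region 1501 bp away (chr4:4873168-4873702) held 1, 3, 5, 1 and 4 tags in CTRL and 3, 16, 0 and 1 in PILO, with PILO 3 again the highest. The low-count regions 6913 and 8038 bp away held 1 to 7 and 1 to 8 tags in CTRL and 1 to 2 and 0 to 6 in PILO. The kept region 9447 bp away held 45 to 74 tags in CTRL and 31 to 77 in PILO.

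The next regions higher in PILO were each carried by 2 animals. At chr11:4599863-4600584 CTRL 1 to 5 held 0, 0, 1, 1 and 0 tags, PILO 2 to 5 held 21, 3, 2 and 27, and PILO + KD 1, 2, 3, 4 and 211 held 2, 1, 2, 2 and 0. PILO 2 and PILO 5 were high, PILO 3 and PILO 4 lay just above the controls, and the groups did not overlap in CPM. The pooled ratio of PILO to CTRL was 34.8 (95% counting interval 9.16 to 295), with adjusted p = 0.0146 in edgeR. At chr8:39359129-39359582 CTRL 1 to 5 held 1, 1, 0, 0 and 1 tags, PILO 2 to 5 held 2, 26, 17 and 2, and PILO + KD animals held 0 to 3. Here PILO 3 and PILO 4 were the high animals. The ratio was 20.6 (95% counting interval 6.62 to 103), with adjusted p = 0.0679 in edgeR, and it did not pass the adjustment.

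The 3 named regions lower in PILO lay on chromosome 3 and had nearly no tags in any PILO animal. At chr3:147190126-147190563 CTRL 1 to 5 held 11, 7, 14, 9 and 9 tags, PILO 2 to 5 held 1, 1, 0 and 0, and PILO + KD 1, 2, 3, 4 and 211 held 11, 4, 7, 4 and 14. All CTRL animals lay above all PILO animals, and PILO + KD overlapped with the controls. The pooled level of CTRL was 19.1 times that of PILO (95% counting interval 5.01 to 162), with adjusted p = 0.0389 in edgeR. An exact permutation test gave 0.00794, the smallest p it can give. The log2 fold change of PILO + KD over CTRL was -0.32 ± 0.44 (SE).

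Both nearest neighbours of this region, read after its values were seen, were also lower in PILO, with unadjusted p of 0.000144 and 3.22e-05 in edgeR. The low-count region 2404 bp away (chr3:147187409-147187722) held 7, 9, 13, 5 and 6 tags in CTRL 1 to 5 and 1, 0, 0 and 1 in PILO 2 to 5, and 10, 0, 6, 6 and 25 in PILO + KD 1, 2, 3, 4 and 211. The kept region 1840 bp away on the other side (chr3:147192403-147193696) held 135, 166, 159, 107 and 140 tags in CTRL and 61, 86, 51 and 64 in PILO (log2 fold change -1.04). Its PILO + KD animals held 198, 87, 148, 103 and 181 tags. The kept region 4785 bp away (chr3:147184853-147185341), beyond the low-count neighbour, held 7 to 16 tags in CTRL and 9 to 18 in PILO, so the difference did not extend to it.

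The other pair lay 144 bp apart, at chr3:104292778-104293285 and chr3:104293429-104294147. The former held 10, 5, 8, 7 and 21 tags in CTRL 1 to 5, 0, 1, 0 and 0 in PILO 2 to 5, and 4, 7, 0, 5 and 11 in PILO + KD 1, 2, 3, 4 and 211. The latter held 6, 2, 9, 13 and 24 tags in CTRL, 0, 1, 0 and 0 in PILO, and 3, 7, 0, 10 and 10 in PILO + KD. In both, PILO 3 held a single tag and PILO + KD 3 was at 0, whereas every CTRL animal had tags. CTRL exceeded PILO 38.9 times (95% counting interval 6.67 to 1565) and 41.2 times (95% counting interval 7.08 to 1655), with adjusted p = 0.0392 and 0.0552 in edgeR, and exact permutation tests gave 0.0159 and 0.0317. The kept region 1029 bp from the former (chr3:104290900-104291749) held 44, 38, 62, 49 and 44 tags in CTRL and 19, 51, 18 and 12 in PILO. In tags PILO 3 lay within the range of the controls, but its library was the largest of all (12391666 tags).

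**Figure D3:**
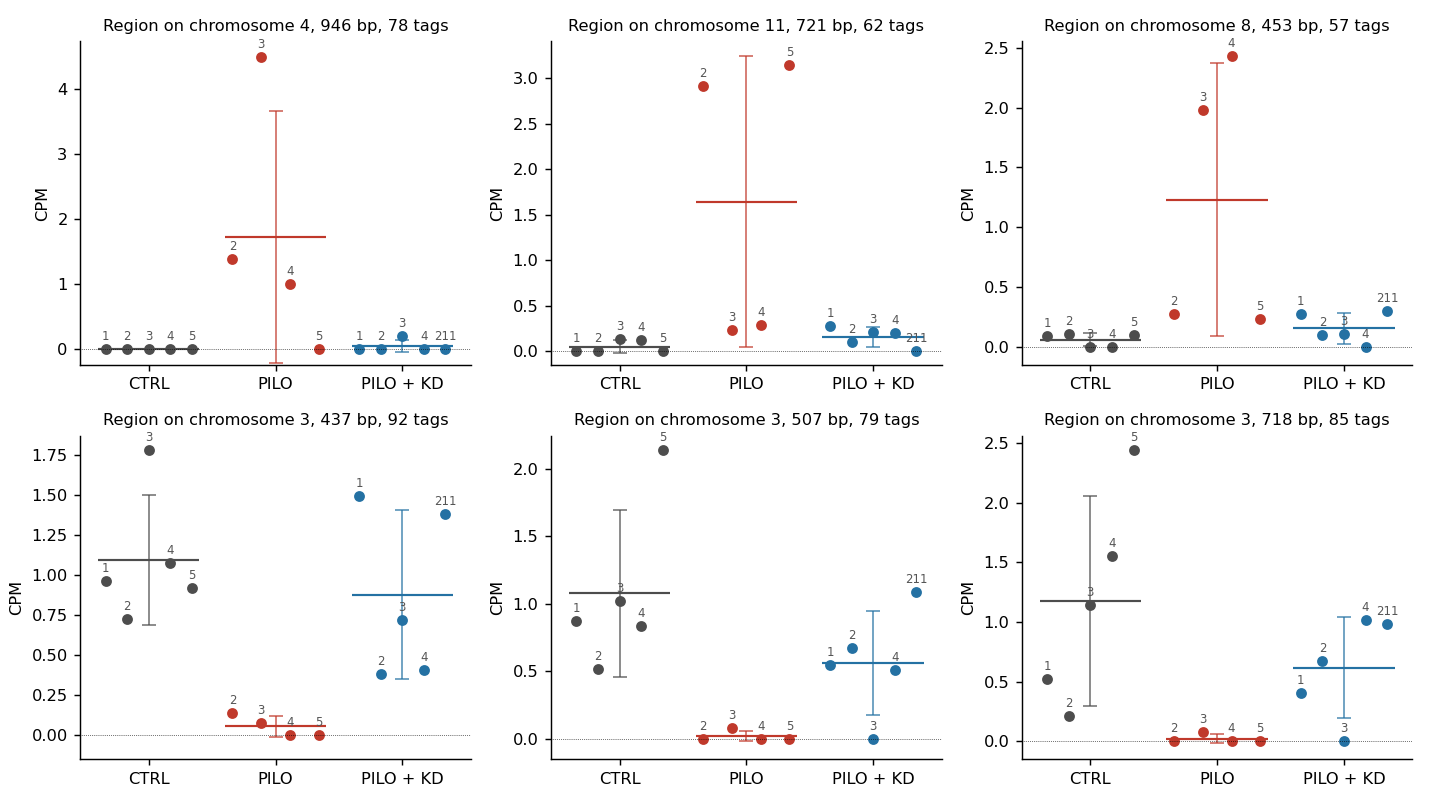
Tags per 1000000 (CPM) by animal in the 3 regions higher (top) and the 3 regions lower (bottom) in PILO with the smallest p in PILO versus CTRL. Points are animals labelled with their number, lines are group means and bars are SD. In the top row 2 or 3 PILO animals lie far above the rest, and in the bottom row all PILO animals lie near 0.

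The region at 0 throughout PILO with the smallest p was chr7:13844057-13844364. CTRL 1 to 5 held 2, 6, 10, 11 and 6 tags, PILO held none, and PILO + KD 1, 2, 3, 4 and 211 held 4, 6, 3, 1 and 1. The pooled level in CTRL was 8.89 times the floor of 3 counts over the PILO group (adjusted p = 0.0961, edgeR). The lower limit of the counting interval for CTRL over PILO was 6.86. The kept region 39 bp away (chr7:13843438-13844018) held 24, 6, 1, 3 and 5 tags in CTRL and 3, 19, 12 and 12 in PILO, and did not show this difference. The kept region 3614 bp away (chr7:13839681-13840443) held 55, 37, 22, 34 and 30 tags in CTRL and 9, 39, 15 and 29 in PILO. It was lower in PILO (log2 fold change -0.58, unadjusted p = 0.0281, edgeR).

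Epilepsy under the ketogenic diet was compared with the same controls. Between PILO + KD and CTRL 1037 low-count regions (0.858%) had p below 0.01, while 0.946% of all regions did. Of these 699 were higher (0.578% of low-count regions, and 0.544% of all regions were called higher) and 338 lower. None had an adjusted p below 0.05 in edgeR, where 5646 had an unadjusted p below 0.05, and DESeq2's test and limma-voom likewise passed 0 after adjustment, with 708 and 1108 at an unadjusted p below 0.01. The median log2 fold change was 0.03, and it was 0.15 without CTRL 1, -0.03 without CTRL 3 and 0.20 within flow cell FC101. With TMM over the low-count regions alone the split was 649 higher and 485 lower (57.2% higher, against 67.4%), and within flow cell FC101 it was 592 and 130. PILO + KD 1 held the highest value of its group in 42.3% of the regions called higher, and without it 867 regions were called, 520 of them higher. The groups did not overlap in 999 low-count regions (0.826%), and in 0.8% of all regions.

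The 2 higher regions with the smallest p were high in most animals of both pilocarpine groups. At chr18:62863508-62864045 CTRL 1 to 5 held 3, 1, 1, 0 and 0 tags and PILO + KD 1, 2, 3, 4 and 211 held 4, 4, 12, 14 and 8, and PILO 2 to 5 held 3, 19, 7 and 9. PILO + KD did not overlap with CTRL (log2 fold change 2.92 ± 0.64 SE, adjusted p = 0.286, edgeR), and PILO compared with CTRL gave 3.11 ± 0.66 (SE). At chr2:245585389-245586159 CTRL held 4, 1, 6, 3 and 2 tags, PILO + KD held 22, 10, 15, 16 and 8, and PILO held 12, 10, 3 and 11 (log2 fold change of PILO + KD over CTRL 2.13 ± 0.48 SE, adjusted p = 0.334, edgeR). Within flow cell FC101 this change was 1.63, with an unadjusted p of 0.0205.

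The 2 lower regions differed in what PILO showed. At chr14:97868431-97868873 CTRL 1 to 5 held 4, 37, 20, 10 and 21 tags, PILO + KD 1, 2, 3, 4 and 211 held 2, 0, 2, 4 and 3, and PILO 2 to 5 held 1, 0, 4 and 3. Both pilocarpine groups were low and CTRL 1 overlapped with them (log2 fold change of PILO + KD over CTRL -3.03 ± 0.56 SE, adjusted p = 0.0628, edgeR). The kept region 100 bp away (chr14:97867535-97868331) held 67 to 85 tags in CTRL and 64 to 98 in PILO + KD. At chr2:235765076-235765570 CTRL held 2, 5, 10, 13 and 20 tags and PILO + KD held 0, 0, 1, 1 and 2, while PILO was divided, with 16 and 22 tags in PILO 2 and 3 and 1 tag each in PILO 4 and 5 (log2 fold change of PILO + KD over CTRL -3.50 ± 0.76 SE, adjusted p = 0.254, edgeR). The region at 0 throughout PILO + KD with the smallest p, chr4:5424578-5424896, held 9, 0, 2, 7 and 2 tags in CTRL and 3, 4, 0 and 5 in PILO. The pooled level in CTRL was 6.72 times the floor over the PILO + KD group (adjusted p = 0.614, edgeR). The lower limit of the counting interval for CTRL over PILO + KD was 4.97.

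The diet was compared within pilocarpine-treated rats. Between PILO + KD and PILO 777 low-count regions (0.643%) had p below 0.01, and 0.536% of all regions did. Of these 333 were higher in PILO + KD (0.275% of low-count regions, and 0.223% of all regions were called higher) and 444 lower. The split depended on the scaling, with 459 higher and 397 lower under TMM over the low-count regions alone, and within flow cell FC101 it was 302 and 261. It also depended on PILO 2, without which 1172 regions were called, 605 of them higher, and on PILO 3, without which 431 were higher and 409 lower. The groups did not overlap in 1703 low-count regions (1.41%), and in 1.1% of all regions. The only low-count region with an adjusted p below 0.05 in edgeR was chr4:4870721-4871667, described above. No low-count region passed the adjustment in DESeq2 or limma-voom, with total tags as library sizes, or without PILO 3, PILO + KD 2, PILO + KD 4 or PILO + KD 211. The higher region with the smallest p was chr17:7870696-7871096, where PILO 2 to 5 held 2, 0, 0 and 0 tags, PILO + KD 1, 2, 3, 4 and 211 held 7, 13, 9, 12 and 12, and CTRL 1 to 5 held 7, 6, 5, 9 and 9. PILO lay below all other animals, and the pooled ratio of PILO + KD to PILO was 20.0 (95% counting interval 5.28 to 170), with adjusted p = 0.058 in edgeR. All 3 contrasts share animals, so that a low value in PILO enters both PILO versus CTRL and PILO + KD versus PILO.

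Low-count regions were then summed in fixed 1-Mb windows, by the midpoint of each region, to gain tags. There were 2567 such windows, with a median of 44 low-count regions (quartiles 17 and 72, range 1 to 154) and 2792 tags over 14 animals. The median animal had 187 tags per window, and 6 of the values were 0. All 2567 windows also held kept regions. The standard error of the log2 fold change between PILO and CTRL had a median of 0.15 for windows of low-count regions, compared with 0.63 for single regions and 0.09 for kept regions in the same windows. The fit took the spread of each window from the trend over all windows and gave the window's own animals no weight in it, so a window in which 1 animal stood apart was not given a larger error. Exact permutation tests over animals are therefore given beside the named windows.

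In PILO versus CTRL 28 windows of low-count regions (1.09%) had p below 0.01, and all 28 were higher in PILO. Of 2571 windows of kept regions 0 (0%) did, and 5 of the kept windows shared with low-count regions had an unadjusted p below 0.05. A test that holds its nominal rate passes a share of about 0.01 at this cut-off where no group differs. Windows of kept regions passed fewer, with 0, 1 and 1 of 2571 in the 3 contrasts. Whether the window test holds that rate was not tested, so the nominal share is no sure yardstick for these counts. The 28 windows lay on 13 chromosomes, their log2 fold changes ranged from 0.31 to 0.70 (median 0.40), and the kept regions of the same windows had a median log2 fold change of 0.04. Over all windows the median was 0.08 for low-count regions, with 73.2% of windows above 0, and 0.00 for kept regions, with 47.0% above 0. The median of low-count windows was 0.18 without CTRL 1, 0.02 without CTRL 3 and 0.05 without PILO 3. The highest PILO value was that of PILO 2 in 12 and of PILO 3 in 11 of the 28 windows. PILO and CTRL overlapped in 26 of them, while 24 of all 2567 windows (0.935%) did not overlap. After adjustment 2 windows had an adjusted p below 0.05 in edgeR, and DESeq2 and limma-voom called 0.

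The number of windows depended on single controls and on the scaling. Without CTRL 1, which had the highest share of tags in low-count regions, 302 windows had p below 0.01, all higher in PILO, of which 132 passed 0.05 after adjustment. No PILO animal was on the flow cell of CTRL 1, so this animal and its flow cell cannot be told apart. Without CTRL 4 there were 14, and none after adjustment, and without PILO 2 there were 23, again with none after adjustment. Within flow cell FC101 there were 210, all higher in PILO, of which 31 passed 0.05 after adjustment. With TMM over the window sums, which removes a shift of the whole set, 58 windows were called, 44 higher and 14 lower, and the median log2 fold change was -0.01. With total tags as library sizes 7 were called.

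In PILO + KD versus CTRL 15 windows (0.584%) were called, 13 higher and 2 lower, and 5 had an adjusted p below 0.05 in edgeR and in limma-voom and 0 in DESeq2. Among kept regions 1 of 2571 windows (0.0389%) was called. Without CTRL 1 the count was 79, and without CTRL 4 it was 10 with none after adjustment, and within flow cell FC101 it was 46 with none. Of all windows 4 (0.156%) did not overlap between these groups. In PILO + KD versus PILO 2 windows (0.0779%) were called, 1 in each direction, with 0.0389% among kept regions, and 43 of all windows (1.68%) did not overlap. None of the 2567 windows had an adjusted p below 0.05 in edgeR, where 39 had an unadjusted p below 0.05, or in DESeq2 or limma-voom. Without PILO 2 there were 13 windows with p below 0.01, 3 of them past the adjustment, and without CTRL 1 there were also 13.

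**Figure D4:**
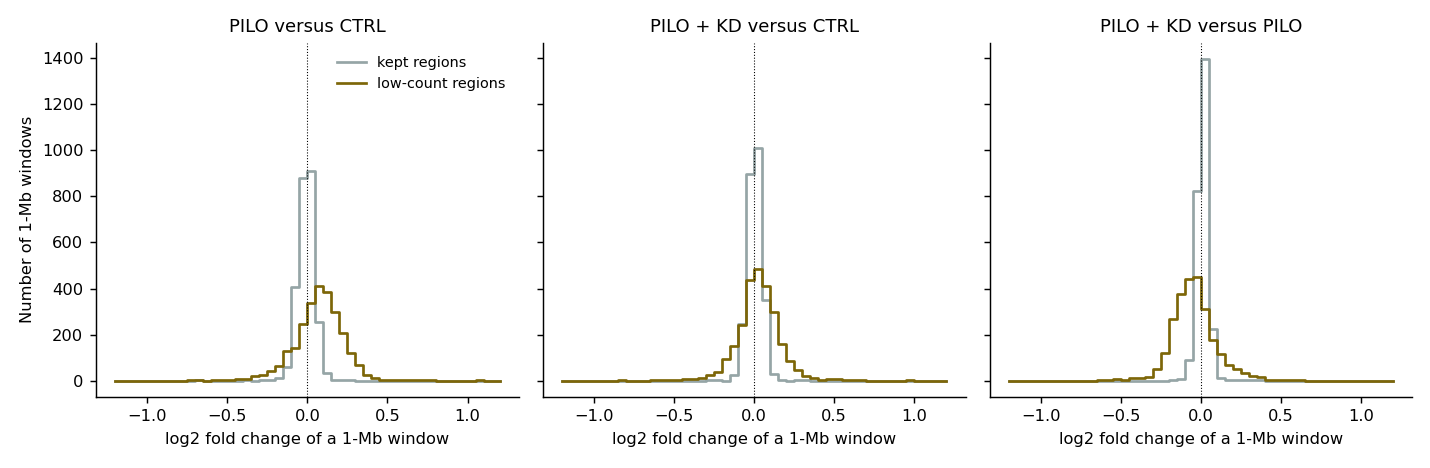
Log2 fold changes of 1-Mb windows in the 3 contrasts, as the number of windows in steps of 0.05, for low-count regions (brown) and kept regions (grey) in the same 2567 windows. Windows of low-count regions are spread more widely, and their median lies at 0.08, 0.03 and -0.05 from left to right, whereas that of kept regions lies within 0.02 of 0 in all 3 panels.

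The strongest window in both contrasts against CTRL was chromosome 16 from 21000001 to 22000000, with 73 low-count and 114 kept regions. Its low-count regions summed to 30.6, 35.4, 53.4, 20.6 and 40.1 CPM in CTRL 1 to 5. They summed to 99.4, 36.7, 32.6 and 41.6 CPM in PILO 2 to 5, and to 55.6, 50.4, 52.7, 54.5 and 72.8 CPM in PILO + KD 1, 2, 3, 4 and 211. PILO + KD lay above all controls except CTRL 3 (53.4), and PILO 2 stood far above the other PILO animals, which lay among the controls. PILO + KD exceeded CTRL by a log2 fold change of 0.67 ± 0.11 (SE, p = 4.41e-09, adjusted p = 1.13e-05, edgeR), and an exact permutation test gave 0.0238. Of its 73 regions 69 had a log2 fold change above 0 in this contrast, against 52.0% of all low-count regions, while 1 had p below 0.01 by itself. The window was chosen by the sum of these same regions, so their shared direction is no separate support. PILO exceeded CTRL by 0.54 ± 0.12 (SE, adjusted p = 0.0231, edgeR), but an exact permutation test gave 0.341, and without PILO 2 the change was 0.04 (p = 0.755, edgeR). The CTRL mean of the window's kept regions was 1275 CPM ± 125 (SD) and the PILO + KD mean was 1307 CPM ± 133 (SD), with a log2 fold change of 0.04 ± 0.10 (SE).

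The other window higher in PILO was chromosome 8 from 39000001 to 40000000, which holds the region at 39359129 described above among its 23 low-count regions. It summed to 9.52, 11.1, 8.02, 7.28 and 6.72 CPM in CTRL 1 to 5, to 19.4, 12.9, 13.02 and 10.8 in PILO 2 to 5, and to between 10.9 and 12.8 in PILO + KD. PILO overlapped with CTRL only through PILO 5 and CTRL 2. The region at 39359129, with 47 tags in PILO and 3 in CTRL, enters these sums, so the window is no separate result. Its change without that region was not computed. The log2 fold change was 0.70 ± 0.17 (SE, p = 3.85e-05, adjusted p = 0.0494, edgeR, and exact permutation p = 0.0238). PILO 2 was the highest of all animals, and without it the change was 0.52. Of the 23 regions 20 lay above 0, against 55.8% of all low-count regions, and the choice of the window by their sum favours this. The windows lower in PILO with the smallest p, on chromosome 7 from 79000001 to 80000000 and on chromosome 14 from 22000001 to 23000000, did not reach the cut-off (log2 fold changes -0.48 ± 0.22 and -0.47 ± 0.23, SE, adjusted p = 0.850 and 0.883 in edgeR). On chromosome 7 CTRL 1 to 5 summed to 7.86, 5.29, 5.85, 6.92 and 5.80 CPM and PILO 2 to 5 to 5.13, 4.87, 4.44 and 3.73, and these groups did not overlap (exact permutation p = 0.0159), whereas on chromosome 14 they did (exact permutation p = 0.222).

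The second window higher in PILO + KD was chromosome 14 from 49000001 to 50000000, with 39 low-count regions. CTRL 1 to 5 summed to 17.7, 13.9, 15.3, 12.4 and 20.5 CPM, PILO + KD 1, 2, 3, 4 and 211 to 36.8, 25.6, 17.0, 24.5 and 25.5, and PILO 2 to 5 to 44.6, 13.5, 18.5 and 17.0. PILO + KD 1 and PILO 2, the animals that stood apart over all low-count regions, were the highest, and they were also the highest in the kept regions of the window (1279 and 1262 CPM). PILO + KD exceeded CTRL by 0.69 ± 0.14 (SE, adjusted p = 0.000925, edgeR; exact permutation p = 0.0238), and by 0.53 without PILO + KD 1. The windows lower in PILO + KD, on chromosome 15 from 7000001 to 8000000 and on chromosome 14 from 96000001 to 97000000, held 10 and 7 low-count regions and changed by -0.53 ± 0.19 and -0.65 ± 0.24 (SE), with adjusted p = 0.999 for both in edgeR and exact permutation p = 0.0952 and 0.0317. The former change was -0.04 within flow cell FC101.

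Between the pilocarpine groups, the window higher in PILO + KD was chromosome 7 from 18000001 to 19000000 (log2 fold change 0.40 ± 0.15 SE, p = 0.00902 in edgeR; exact permutation p = 0.0635). The window lower in PILO + KD was chromosome 2 from 4000001 to 5000000, where PILO 2 to 5 summed to 6.38, 4.56, 5.58 and 8.15 CPM and PILO + KD to between 3.604 and 4.34. The groups did not overlap (log2 fold change -0.64 ± 0.22 SE, p = 0.00399 in edgeR; exact permutation p = 0.00794, the smallest it can give), but the adjusted p was 0.9996 and the change without PILO 5 was -0.47.

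**Figure D5:**
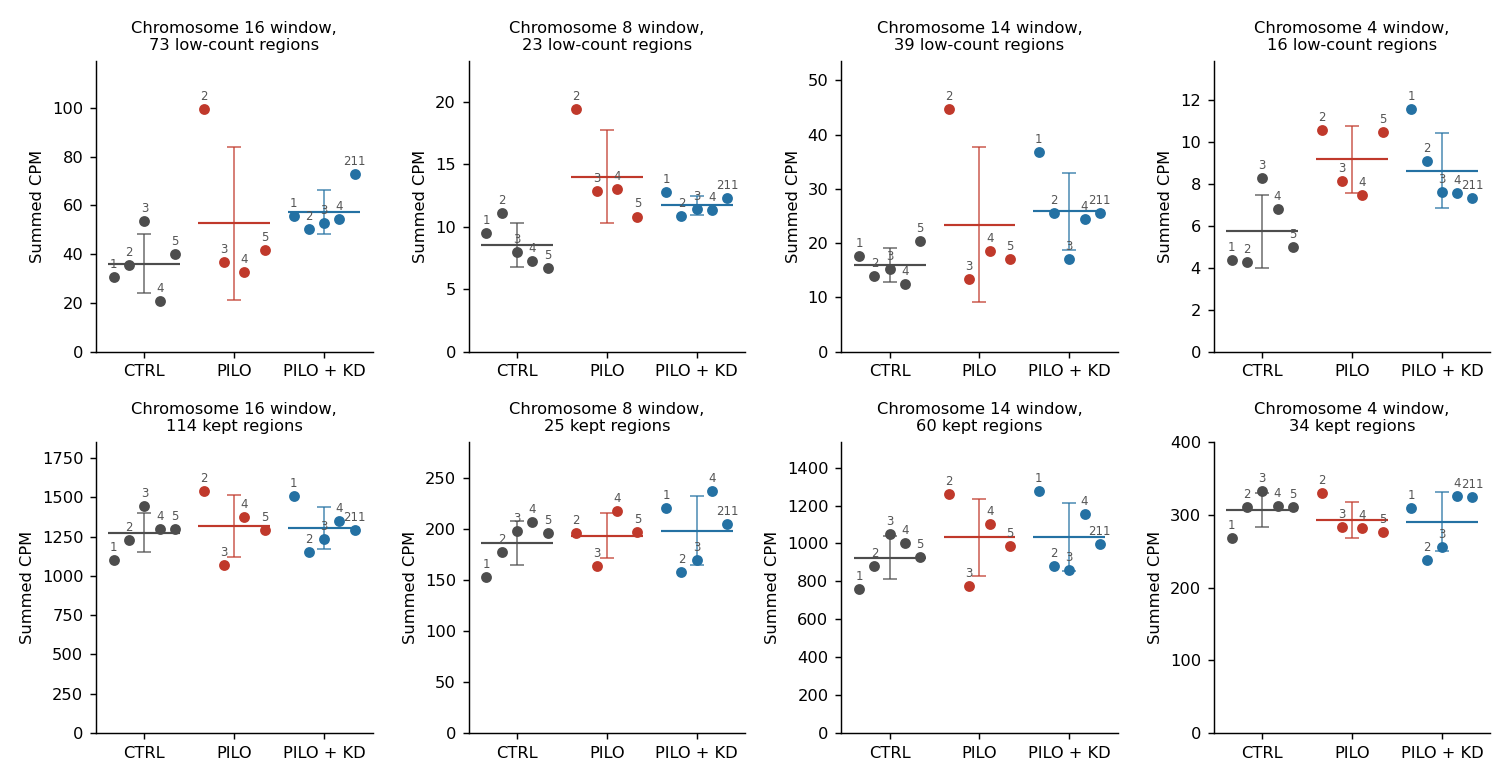
Summed CPM by animal in the 4 windows named for a higher value or for a difference from kept regions against CTRL, for low-count regions (top) and kept regions of the same window (bottom). Points are animals labelled with their number, lines are group means and bars are SD. On chromosomes 16, 8 and 14 PILO 2 lies above all other animals in low-count regions, and the kept regions of all 4 windows overlap between groups.

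Whether low-count and kept regions of a window changed differently was tested directly, by the interaction of the kind of region and the group. In PILO versus CTRL 5 windows (0.195%) had p below 0.01, in PILO + KD versus CTRL 8 (0.312%) and in PILO + KD versus PILO 1 (0.039%). None had an adjusted p below 0.05 in edgeR, where 36, 25 and 16 windows had an unadjusted p below 0.05. No window was therefore shown to differ between the kinds of region. Without CTRL 1 the counts were 100 and 31 in the contrasts with CTRL. The window with the smallest p in PILO versus CTRL was chromosome 4 from 103000001 to 104000000, which holds 16 low-count and 34 kept regions. Low-count regions summed to 4.37, 4.25, 8.27, 6.80 and 4.99 CPM in CTRL 1 to 5 and to 10.5, 8.14, 7.44 and 10.5 in PILO 2 to 5. Only CTRL 3 reached the level of PILO, while kept regions had means of 307 CPM ± 23.8 in CTRL and 293 CPM ± 25.001 in PILO (SD). The difference of the log2 fold changes was 0.77 ± 0.21 (SE, adjusted p = 0.991, edgeR), and an exact permutation test of the ratio of low-count to kept CPM gave 0.0159. In PILO + KD versus CTRL it was the chromosome 16 window (0.68 ± 0.19 SE, adjusted p = 0.887, edgeR; exact permutation p = 0.00794), and in PILO + KD versus PILO the chromosome 2 window (-0.65 ± 0.23 SE, adjusted p = 0.9996, edgeR; exact permutation p = 0.00794).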

How the data were processed

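Methyl-Seq of dorsal hippocampal DNA (500 ng per animal) from 14 rats was used. The authors captured methylated DNA, sequenced it (36 bp, single-end), used BWA and the RN4 build for alignment and dropped duplicates. They then called regions that differed between pairs of samples with MACS (1.4.0 in the submitters' processing notes), merged them, and deposited whole-number counts of tags per region and animal, without normalization. A region is therefore in the table because some pair of animals differed there.

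Groups came from the labels. Low-count regions and named items were chosen with earlier results of these data known. All 310068 regions with at least 1 tag were fitted with edgeR 4.0.16 (R 4.3.3) by its quasi-likelihood test on a mean per group, with TMM scaling over the whole table and Benjamini-Hochberg adjustment over it (prior degrees of freedom 40.6). Each standard error was taken as |log2 fold change| over the root of its F. Window sums kept these library sizes. The interaction fit had animal as a term. The share of zeros at equal total tags is the expected share after binomial thinning to the smallest total. Log2 CPM for correlations used a prior count of 2. Scripts were tested on simulated data. Intervals and floors cover counting error only.

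Named regions were, by smallest p, 3 higher and 3 lower in PILO versus CTRL, 2 and 2 in PILO + KD versus CTRL, 1 and 1 in PILO + KD versus PILO, and 1 region at 0 throughout each group. Named windows were 2 and 2, 2 and 2, and 1 and 1, and the window with the smallest interaction p per contrast. Regions within 10 kb of a named region were read after its values were seen. Rats of different groups share replicate numbers but not an animal. Alternatives changed the scaling, filter, test (DESeq2 1.42.0, limma-voom in limma 3.58.1), animals, covariates, thresholds and window borders.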

Additional observations from a re-analysis of the deposited data

Results flagged for a closer look

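In 78 groups of 4 or 5 animals (4 measures per animal, and the CPM of each named region and window), the gap between the outermost animal and its nearest neighbour was compared with the range of the group, and 7 exceeded the limit. Chance passes about 5% of groups, and named items were selected for their differences. A group otherwise at 0 exceeds it with a single tag. PILO 2 held 0.277 CPM at chr17:7870696-7871096 with the other PILO animals at 0. PILO 3 held 0.0761 CPM, a single tag, at each of chr3:104292778-104293285 and chr3:104293429-104294147, where the other PILO animals were at 0. PILO + KD 3 held 0.206 CPM at chr4:4870721-4871667, where the other PILO + KD animals were at 0.

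In windows, PILO 2 summed to 44.6 CPM in the chromosome 14 window from 49000001, with the other PILO animals between 13.5 and 18.5. It summed to 99.4 CPM in the chromosome 16 window from 21000001, with the others between 32.6 and 41.6. In that window PILO + KD 211 summed to 72.8 CPM, with the others between 50.4 and 55.6. The part of a library that stands apart in these values was not tested.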

How the results depend on the processing

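Under alternative settings the counts of low-count regions with p below 0.01 (PILO versus CTRL 1287, PILO + KD versus CTRL 1037, PILO + KD versus PILO 777) changed by more than 1.5 times as follows, in that order of contrasts where 3 values are given. A cut-off of 0.05 gave 6425, 5646 and 4970 and an adjusted p below 0.05 gave 4, 0 and 1. With edgeR's filterByExpr, which kept 14188 low-count regions, there were 207, 186 and 83, and fewer regions were tested. Requiring 1 tag in every animal gave 754 in PILO versus CTRL and 502 in PILO + KD versus PILO. DESeq2's Wald test gave 809 and 431 in these contrasts. Flow cell as a covariate, a fit in which PILO + KD 4 has its own term, gave 516 in PILO + KD versus PILO. With a replicate block, from which animal 211 is left out, there were 777, 495 and 453. Of 11 same-numbered pairs, 9 were also on the same flow cell, and their deviations from the group means correlated between -0.143 and 0.148 over all regions, so the animals were not treated as pairs. Leaving out single animals gave 1074 to 1484, 790 to 1317 and 649 to 1172. The cause of these changes was not tested.

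Windows (28, 15 and 2) numbered 2, 5 and 0 at an adjusted p below 0.05, 58, 26 and 16 with TMM over the window sums, and 210, 46 and 10 within flow cell FC101. Total tags gave 7 in PILO versus CTRL and 1 in PILO + KD versus PILO. Flow cell as a covariate gave 66 and 9 in these contrasts, and DESeq2 gave 6 in PILO + KD versus CTRL. In PILO + KD versus PILO there were 9 with moved borders, 5 with the replicate block, and 10 without PILO 2 and PILO + KD 1, an alternative chosen after seeing the data. Leaving out single animals gave 14 to 302, 10 to 79 and 0 to 13. Windows of the interaction (5, 8 and 1) numbered 0, 0 and 0 after adjustment, 21, 15 and 9 with TMM within each kind of region, and 105, 86 and 12 within flow cell FC101, and 3 in PILO + KD versus PILO without PILO 2 and PILO + KD 1. Leaving out single animals gave 2 to 100, 2 to 31 and 0 to 7.

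The share of tags in low-count regions ranged over left-out animals from -0.0104 to 0.862 points, from -0.304 to 0.568 and from -0.489 to -0.00909. Without CTRL 3, CTRL 4, PILO + KD 2 and PILO + KD 3 in turn, PILO + KD minus CTRL was -0.304, -0.0274, -0.0200 and -0.106. Within flow cell FC101 PILO + KD minus PILO was 0.198. For zeros at equal total tags the ranges were -2.30 to 0.154, -2.99 to -0.537 and -1.40 to 0.358. PILO minus CTRL was 0.263 as counted, 0.427 at equal tags within low-count regions and 0.154 without CTRL 3, and PILO + KD minus PILO was 0.358 without PILO 4 and 0.137 without PILO + KD 2. The named regions and windows kept their direction under every alternative run, but not their side of the cut-off. For named regions 9 values fell short of it. Not among these 9 are exact permutation tests of chr4:4870721-4871667 (PILO versus CTRL), chr7:13844057-13844364 and chr4:5424578-5424896, which gave 0.0476, 0.0159 and 0.0476. For named windows 24 values with an animal left out and 27 others fell short, with 5 and 5 for the interaction. In the other direction, 1 window value with an animal left out and 1 other newly passed the cut-off. Few tags per region limit what single regions can show.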
